A study of Mus musculus with 2 samples.

Results

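The enzymes that break down phenylalanine, tyrosine and tryptophan were examined in liver RNA of female NOG-TKm30 mice, an immunodeficient NOG line in which the mouse transthyretin enhancer and promoter drive HSVtk mutant clone 30, a viral thymidine kinase. The set was named by gene symbol as 9 names, and 8 of them matched a row of the deposited table of 15348 genes: Hpd, Hgd, Fah, Tdo2, Afmid, Kmo, Kynu and Haao. The name Gstz1-none matched no row, so the gene Gstz1 is described with the surrounding pathway and not counted in the set. The control group was 1 library made from the mixed RNA of 3 untreated mice. The treated group was 1 library made from 5 mice that received the aromatic amine ortho-toluidine (OTD), first 0.6% over 1 week, then 0.3% over 3 weeks. All mice were 16 weeks old, and both groups carry the transgene and the immunodeficiency. The treatment protocol names C57BL mice, unlike the strain label and the titles, and the vehicle of the percentages is not given in the sources used here.

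Phenylalanine is degraded through tyrosine, in the liver, to fumarate and acetoacetate. Tyrosine aminotransferase feeds hydroxyphenylpyruvate into a chain in which Hpd makes homogentisate, Hgd opens its ring, Gstz1 isomerizes the product and Fah splits it. Tryptophan enters the kynurenine route through Tdo2, the hepatic dioxygenase, and passes Afmid, Kmo, Kynu and Haao on the way to quinolinate and NAD, with side branches to kynurenic acid and to full oxidation.

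Levels are the deposited values, CPM (each library's reads brought to 1 total) with a further factor per library, and every value was a whole multiple of the value of 1 read. The control library held 13569189 reads and the OTD library 14685193. Log2 ratios are OTD over control with a pseudocount of 1, and genes with a mean level of at least 10 are called measured (7602 genes). Higher and lower genes are those at 1.2-fold or more on that scale. Ratios of levels carry a 95% exact Clopper-Pearson interval on the split of reads, which covers counting error only. With 1 library per group the spread between mice or pools is unknown, no test across replicates exists and no p-value is given.

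Most enzymes of the set had close levels in the 2 pools, and Tdo2 and Kynu, both on the tryptophan side, were the exceptions. Tdo2 was 1.33-fold lower in the OTD pool (1.29 to 1.37), and Kynu, which cleaves kynurenines, was 1.21-fold higher (1.14 to 1.27). The other 6 lay between ratios of 0.966 and 1.07. Of the 8, 1 was thus lower and 1 higher at 1.2-fold, where 8.3% of all measured genes were lower and 10.7% higher. Among the 1486 genes with a mean level of at least 100, which takes in all 8, the shares were 9.49% lower and 7.13% higher. The count in the set is therefore near the background in each direction. The median log2 ratio of the 8 was 0.035, beside −0.0063 over all measured genes, which had an SD across genes of 0.24. All 8 passed the minimum level in both pools.

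**Figure D1:**
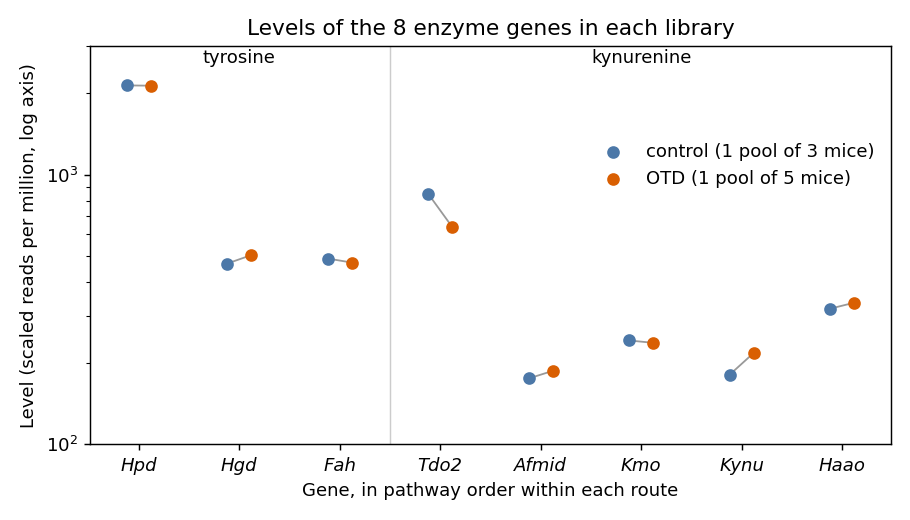
Levels of the 8 enzyme genes on a log axis, 1 point per library, control on the left and OTD on the right of each pair. Hpd stands highest at about the same level in both pools, and Tdo2 shows the widest gap, from 850 to 639.

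Hpd, which encodes hydroxyphenylpyruvate dioxygenase, had a level of 2142 in the control pool and 2137 in the OTD pool. These came from 28508 and 31986 reads, and the ratio was 0.998 (0.982 to 1.01). The gene is on the minus strand of chromosome 5 at 123171807 to 123182727 in GRCm38. Hpd took the most reads of the set, and the pools differed by less than counting error.

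Hgd, which encodes homogentisate dioxygenase, stood at 467.7 in the control pool and 502.7 in the OTD pool. Its ratio was 1.07 (1.04 to 1.11). The interval lies above 1, but 28.3% of measured genes had a log2 ratio as high or higher. The gene is on chromosome 16 at 37580153 to 37632020, plus strand.

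Fah, which encodes fumarylacetoacetase, the last step, stood at 488.3 in the control pool and 471.9 in the OTD pool. Its ratio was 0.966 (0.934 to 1.00), and 40.5% of measured genes had a log2 ratio as low or lower. It lies on chromosome 7 at 84585159 to 84606722, minus strand. The sign of its log2 ratio, like those of Hpd and Kmo, depended on the scaling, with a range of −0.063 to 0.024 for Fah over the alternatives. No order between the control and OTD pools can therefore be given for these 3 genes.

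Within each library the 3 tyrosine enzymes held nearly the same proportions, which no scaling between libraries alters. Hpd took 69.1% of their reads in control (exact interval 68.7 to 69.6) and 68.7% in OTD (68.3 to 69.1). Hgd took 15.1% and 16.2%, and Fah 15.8% and 15.2%. By reads, Hgd was the lesser of the pair in control, with intervals that overlapped slightly (14.8 to 15.4 and 15.4 to 16.1). It was the greater in OTD (15.8 to 16.5 and 14.8 to 15.5). These shares do not account for transcript length. Per kilobase of the longest coding transcript, Fah stood above Hgd in control (308 and 275). In OTD their values were too close to give an order (298 and 295).

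Tdo2, tryptophan dioxygenase, commits tryptophan to the kynurenine route in hepatocytes. Its level was 849.6 in control, from 11309 reads, and 639.5 in OTD, from 9573 reads. The log2 ratio was −0.41 and the ratio 0.753 (0.732 to 0.773). Of all measured genes, 2.67% had a log2 ratio as low or lower, and 3.30% of those with a mean of at least 100. Over the scalings and pseudocounts tried, the log2 ratio stayed between −0.42 and −0.34. The gene lies on chromosome 3 at 81957090 to 81976202, minus strand, and none of its transcripts shared a stretch of 50 bases with another gene.

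Afmid, the formamidase that turns formylkynurenine into kynurenine, stood at 175.3 in control and 187.0 in OTD, a ratio of 1.07 (1.01 to 1.13). The gene starts inside the first exon of the thymidine kinase gene Tk1, which runs the other way, and the pair share 83 exon bases. Tk1 had levels of 16.0 and 19.6. A read-through gene model, Gm20708, also covers 44.2% of the exon bases of Afmid and has no row in the table. The use of strand in counting is not given in the sources used here, so reads of these overlaps cannot be assigned with certainty. Afmid lies on chromosome 11 at 117825924 to 117839908, plus strand.

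Kmo encodes the monooxygenase that makes hydroxykynurenine. Its level was 242.6 in control and 237.7 in OTD, a ratio of 0.980 (0.934 to 1.03). This difference was within counting error. It lies on chromosome 1 at 175620381 to 175662116, plus strand.

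Kynu, kynureninase, uses pyridoxal phosphate to cut the side chain from hydroxykynurenine. Its level was 180.9 in control, from 2408 reads, and 218.0 in OTD, from 3264 reads. The ratio was 1.21 (1.14 to 1.27) and the log2 ratio 0.27, and 10.2% of measured genes were as high or higher. Its counting interval holds the 1.2-fold limit, and it fell just short of that limit with a pseudocount of 10 (0.26) or after scaling to the same upper quartile (0.25). The gene lies on chromosome 2 at 43555329 to 43682715, plus strand.

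Haao encodes hydroxyanthranilate dioxygenase, whose product leads to quinolinate. Its level was 318.2 in control and 334.8 in OTD, a ratio of 1.05 (1.01 to 1.1), with 33.6% of measured genes as high or higher. It lies on chromosome 17 at 83831156 to 83847963, minus strand.

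The make-up of the kynurenine enzyme messages differed between the libraries by more than counting error. Tdo2 took 48.1% of the reads of these 5 genes in control (47.5 to 48.7) and 39.5% in OTD (38.9 to 40.2). Kynu took 10.2% (9.86 to 10.6) and 13.5% (13.1 to 13.9), and Haao 18.0% and 20.7%. The level of Tdo2 was 4.70 times that of Kynu in control and 2.93 times in OTD. These are ratios of read-based levels and do not account for transcript length. When the share of 1 gene falls, the shares of the others together must rise. The shares of Afmid (9.93% and 11.6%) and Kmo (13.7% and 14.7%) were also higher in OTD, although the level of Kmo was not. The higher shares of Afmid, Kynu and Haao likewise include the effect of the lower Tdo2 share. Their levels had ratios of 1.07, 1.21 and 1.05.

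**Figure D2:**
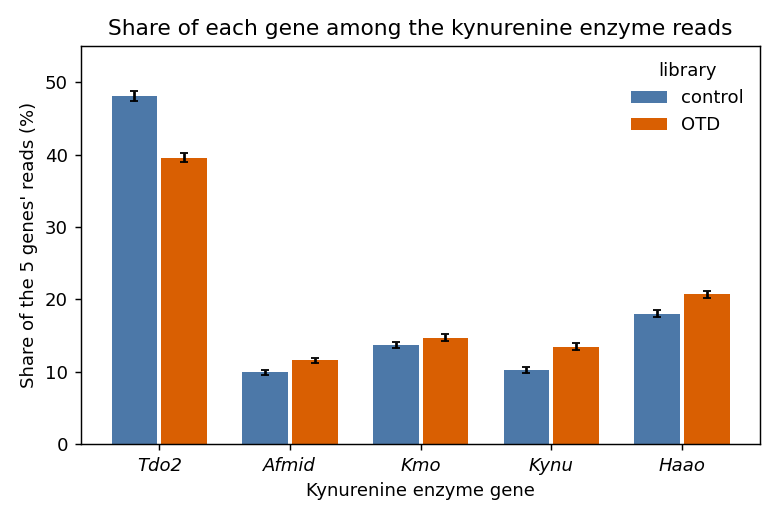
Share of each gene among the reads of the 5 kynurenine enzyme genes, in percent, for the control and OTD libraries, with error bars for the 95% exact counting interval. The Tdo2 bar is 48.1% in control and 39.5% in OTD, and the other 4 bars are higher in OTD.

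Per kilobase of the longest annotated coding transcript, the order of levels in control was Hpd, Fah, Hgd, Tdo2, Haao, Afmid, Kmo and Kynu. Hpd stood at 1525 per kilobase in control and 1522 in OTD, well above the others. Fah followed with 308 in control and 298 in OTD, and Hgd with 275 and 295. Tdo2 had 248 per kilobase in control and 186 in OTD, while Haao had 230 and 242, so Tdo2 stood above Haao in control and below it in OTD. Afmid (75.4 and 80.4), Kmo (66.1 and 64.7) and Kynu (65.1 and 78.5) were lowest per kilobase. The transcripts in use are not known, and the coding transcripts of Tdo2 range from 1616 to 3431 bases, so the order among Fah, Hgd, Tdo2 and Haao, and that among the lowest 3, is uncertain.

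The sequences printed here show where the searched motifs occurred in the promoters of the set, since Tdo2 and its neighbours in the routes differ in ratio. RefSeq promoter windows (GRCm38.p6, 250 bases before to 50 after the start) were given for 7 of the 8 genes, all but Kynu. Both strands were read, and no motif searched lies inside another. The TATA box was searched as TATAAA. The word for the glucocorticoid receptor was AGAACA, which is part of its full site. C/EBP was searched as TTGCGCAA, and the word for HNF4 was CAAAGTCCA. Each line gives 30 bases in the direction of the gene with the match in capitals. A match is a description of letters only.
Tdo2, TATAAA, chr3:81975940-81975969, minus strand: ttctatgttggaTATAAAagctcaacttgg
Hgd, TATAAA on the opposite strand, chr16:37580002-37580031, plus strand: aattggtcaatgTTTATAtcaggtgaaaga
Kmo, AGAACA on the opposite strand, chr1:175632195-175632224, plus strand: cctgaacagaggTGTTCTggaagctatggc
Haao, AGAACA on the opposite strand, chr17:83846937-83846966, minus strand: aggaggcgggtcTGTTCTtgggctttgatc

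Tdo2, with a ratio of 0.753, and Hgd, with 1.07, both held TATAAA, starting 229 and 139 bases before the start site, and 13.6% of all 32851 windows held it. AGAACA was found in Kmo, 15 bases after the start site, and in Haao, 164 bases before it, as in 19.0% of all windows. GENCODE places the outermost starts of Tdo2, Kmo and Haao further upstream than RefSeq, so the matches in these 3 lie inside the GENCODE genes. TTGCGCAA (0.183% of all windows) and CAAAGTCCA (0.475%) were in none of the 7. Tdo2 and Hgd held TATAAA on different strands, and any part of these words in the ratios was not tested.

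The other genes described on the tyrosine route also had close levels in the 2 pools. Of 5 genes from Tat to Fah, all measured, 0 were higher or lower at 1.2-fold, with a median log2 ratio of 0.0074 that turned to −0.0063 after scaling to the same upper quartile. Tat, which removes the amino group of tyrosine, had 2345 and 2510, a ratio of 1.07 (1.05 to 1.09). Gstz1, the isomerase between Hgd and Fah, had 596.0 and 599.0, a ratio of 1.01 (0.975 to 1.04), and 465 of its exon bases overlap Pomt2 on the opposite strand. The 7 genes that make, recycle or regulate tetrahydrobiopterin, a cofactor of aromatic amino acid metabolism, gave 0 higher and 0 lower, with a median of 0.018. Among them the synthetic enzyme Spr had 82.7 in control and 72.0 in OTD, a ratio of 0.871 (0.80 to 0.948), and Pcbd1, which helps to recycle the cofactor, had 187.5 and 202.9. Over all measured genes 10.7% were higher and 8.3% lower, so counts of 0 in lists of 5 and 7 genes are near the background.

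**Figure D3:**
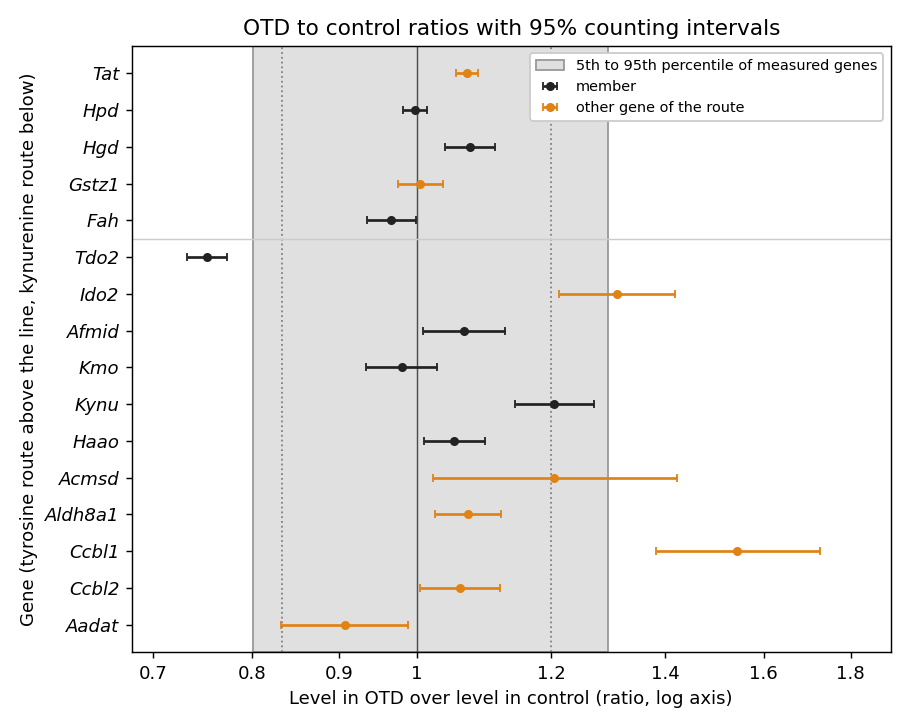
Ratio of the OTD to the control level on a log axis, with 95% counting intervals, for the tyrosine route (above the line) and the kynurenine route (below), with 1.2-fold limits dotted and the 5th to 95th percentile of measured genes shaded. Tdo2 (0.753) lies left of the shaded range, and Ido2 (1.31) and Ccbl1 (1.54) lie right of it.

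Of 12 listed genes of the kynurenine route 11 were measured, and 3 were higher (Kynu, Ido2 and Ccbl1) and 1 lower (Tdo2), with a median of 0.093. Over all measured genes 10.7% were higher and 8.3% lower, and the routes were not compared by a test. The higher count was 2 after scaling to the same upper quartile and 4 after scaling to the same total. Ido1 was not analysed here. Ccbl1, the table's symbol for the kynurenine aminotransferase and cysteine conjugate lyase Kyat1, had 37.9 in control and 58.6 in OTD, a ratio of 1.54 (1.38 to 1.73) from 505 and 877 reads. It had the largest difference of the route. Ido2, a second tryptophan dioxygenase, had 79.9 in control and 104.8 in OTD, a ratio of 1.31 (1.21 to 1.42).

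The level of Tdo2 was 10.6 times that of Ido2 in control and 6.10 times in OTD, again not corrected for length. The other aminotransferases that make kynurenic acid did not reach 1.2-fold. Ccbl2 (Kyat3) had 180.7 and 191.6, and Aadat 78.9 and 71.5, with a ratio of 0.907 (0.832 to 0.988). On the branch to full oxidation, the decarboxylase Acmsd had 19.2 in control and 23.2 in OTD, a ratio of 1.21 (1.02 to 1.42) whose log2 value of 0.26 with the pseudocount was under the limit. Aldh8a1, the next dehydrogenase, had 260.5 and 279.3.

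Genes on a list for making NAD from quinolinate, nicotinate or nicotinamide, or for using NAD or nicotinamide, gave 1 higher and 0 lower. These were among 6 measured of 10 listed, where 10.7% of all measured genes were higher and 8.3% lower. The median was 0.14, and Nadsyn1 alone was below 0, with a ratio of 0.936 (0.783 to 1.12). Nampt, which salvages nicotinamide, had 50.1 in control and 67.9 in OTD, a ratio of 1.36 (1.23 to 1.5). Qprt, which takes quinolinate from the kynurenine route into NAD, had 84.7 and 95.3, a ratio of 1.12 (1.04 to 1.22). The kinase Nadk, which turns NAD into NADP, had 251.3 and 277.3. Among genes of the aromatic amine branches, 4 of 8 were measured and 1 was higher, with a median of 0.080. That gene was Ddc, the aromatic amino acid decarboxylase, with 72.6 in control and 94.4 in OTD, a ratio of 1.30 (1.2 to 1.41). Of the 6 transporter genes 2 were measured, and Slc16a10, a carrier of aromatic amino acids, was lower, with 217.6 in control and 175.9 in OTD, a ratio of 0.808 (0.766 to 0.852), a size it lost after scaling to the same total. The other measured gene, Slc3a2, had 61.9 and 69.9.

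Enzymes for other amino acids served as a comparison. Of 46 listed genes 45 were measured, with 1 higher and 3 lower, where 10.7% of all measured genes were higher and 8.3% lower. The higher count became 4 with equal library totals and 5 with equal totals that omit Rn45s, while the lower count stayed at 3. The sign of the median, −0.024, also depended on the scaling (−0.037 to 0.049). Csad, of taurine synthesis, had 238.8 in control and 164.0 in OTD, a ratio of 0.687 (0.651 to 0.724). The ornithine aminotransferase gene Oat had 436.6 and 321.8, a ratio of 0.737 (0.709 to 0.766), and the serine dehydratase gene Sds 99.8 and 77.4, a ratio of 0.776 (0.717 to 0.840). The higher gene as deposited was Bhmt2, a methyltransferase of methionine synthesis, with 155.1 and 191.8. The gap of Tdo2 was thus no larger than those of Csad and Oat.

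**Figure D4:**
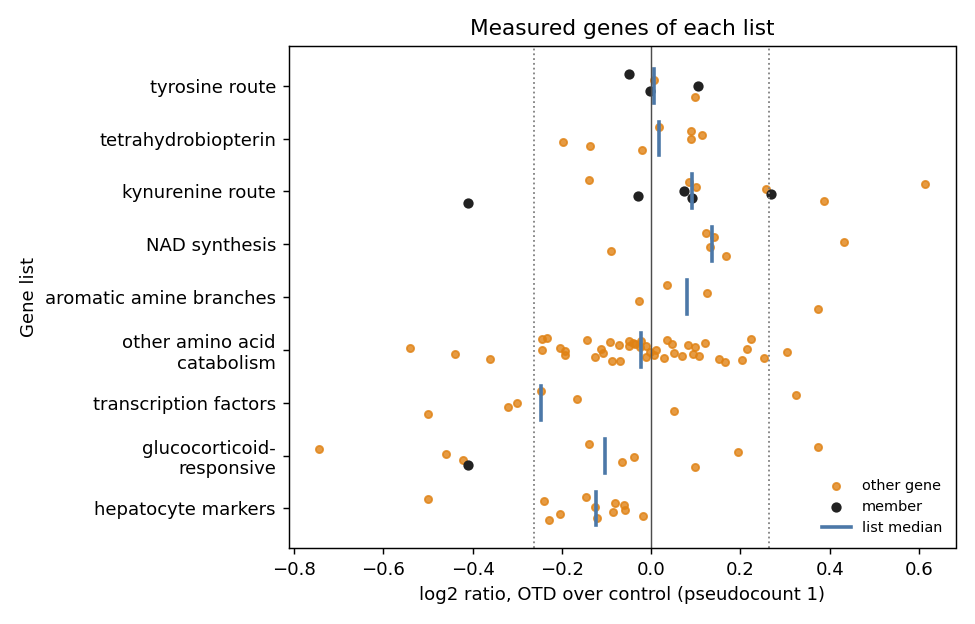
Log2 ratio of OTD over control for each measured gene of 9 gene lists, with the 8 enzyme genes in black, list medians as vertical bars and the 1.2-fold limits dotted. The tyrosine route lies wholly within the limits, while Tdo2 (−0.41) and Ccbl1 (0.61) mark the ends of the kynurenine route.

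Tdo2 and Tat are both classic glucocorticoid-inducible genes, and here their ratios were 0.753 and 1.07. On a list of 10 such liver genes, all measured, 4 were lower (Zbtb16, Per1, Fkbp5 and Tdo2 itself) and 1 higher (Dusp1). Of all measured genes 8.3% were lower and 10.7% higher. Besides Tat, those past neither limit were Pck1, Tsc22d3, Mt2 and Sgk1, with ratios of 0.956, 0.973, 0.905 and 1.15. The list's median of −0.10 ranged from −0.24 to −0.030 over the alternatives, and 2 were higher with equal library totals that omit Rn45s. Zbtb16, a zinc finger repressor, had 118.0 in control and 70.1 in OTD, a ratio of 0.594 (0.549 to 0.642). Per1, also a clock gene, had 36.3 and 26.1, a ratio of 0.720 (0.628 to 0.824), and Fkbp5, a chaperone of the receptor, 78.1 and 58.0, a ratio of 0.743 (0.678 to 0.814). The phosphatase gene Dusp1 had 35.9 and 46.8, a ratio of 1.30 (1.16 to 1.47). The receptor gene Nr3c1 had 136.2 and 141.1, a ratio of 1.04 (0.972 to 1.1). The hour of tissue collection is not given in the sources used here.

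Of 7 transcription factor genes of liver amino acid enzymes, 3 were lower and 1 higher (Onecut1), beside 8.3% and 10.7% of all measured genes, and the median log2 ratio was −0.25. With equal library totals that omit Rn45s 1 was lower, and with a pseudocount of 10 the log2 ratio of Onecut1 was 0.20, under the limit. Hnf4a had 948.1 in control and 669.9 in OTD, a ratio of 0.707 (0.688 to 0.725). Cebpa had 193.3 and 154.7, and Cebpb 110.4 and 89.5. Onecut1 had 11.8 and 15.0, a ratio of 1.27 (1.04 to 1.57).

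Hepatocyte markers checked the liver label and were abundant, led by Alb at 81661 in control and 69694 in OTD. Of all 7602 measured genes, 3921 had log2 ratios below 0 and 3681 above 0 as deposited. Genes with a mean level of at least 100 had a median log2 ratio of −0.041. All 12 hepatocyte markers had log2 ratios below 0 as deposited, and 9 with equal library totals that omit Rn45s. They ran from −0.50 (Hnf4a) to −0.018 (Apoa2), with a median of −0.12 (−0.14 to −0.051 over the alternatives). Their summed level in OTD was 0.873 times that in control, and none was at 0. Ttr, whose promoter drives the transgene, had 4514 and 4338, a ratio of 0.961 (0.95 to 0.972). Among these markers Hnf4a alone had a log2 ratio below that of Tdo2, and their part in the Tdo2 result was not tested. Fewer cells of a type and less RNA per cell cannot be told apart in such bulk samples. Kupffer cell markers had a summed level over all 11 listed genes 0.923 times that of control. Of these, 9 were measured, all 9 below 0 as deposited and 7 with equal library totals that omit Rn45s, with a median of −0.13. None of the 11 was at 0, and their part in the values of the set was not tested. Medians were −0.067 for sinusoidal endothelial markers (−0.081 to 0.0053 over the alternatives, above 0 only with equal library totals that omit Rn45s), −0.094 for stellate cell markers and −0.17 for cholangiocyte markers (−0.19 to 0.16, above 0 only without a filter on low levels), the last over 2 measured genes. Erythroid markers went the other way, with a summed level over all 6 listed genes 1.25 times that of control. Of these, 4 were measured, all 4 above 0, with a median of 0.087. Among them the alpha-globin gene Hba-a2 alone was higher at 1.2-fold, with 80.6 in control and 142.2 in OTD, a ratio of 1.76 (1.64 to 1.9). The other alpha-globin gene, Hba-a1, had 197.4 and 211.1, a ratio of 1.07 (1.02 to 1.13). Hbb-bt and Alas2 had ratios of 1.05 (0.869 to 1.28) and 1.06 (0.868 to 1.29). The ribosomal RNA precursor Rn45s had 14976 in control and 26106 in OTD. Scaling to the same total put 73.7% of all 1.2-fold calls on the higher side, and 78.6% when Rn45s was left out, against 56.2% as deposited. Both scalings kept Tdo2 lower and Kynu higher at 1.2-fold.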

How the data were processed

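Liver RNA of NOG-TKm30 mice was sequenced after ribosomal RNA depletion with a directional MGI kit, per the labels' protocols, as 1 library of 3 mixed control mice and 1 of 5 mixed OTD mice. The authors deposited 1 normalized signal per gene symbol and library. The submitters' processing notes list edgeR, RSEM, Bowtie2, Trimmomatic 0.38 and the build mm10. What each did, and the annotation, is not given in the sources used here. The abbreviations Ctrl and OTD in the column names gave the groups, and the word Wild in their names is unexplained.

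Each deposited signal was divided by the lowest nonzero value of its column. In both columns 100% of values were whole reads (relative tolerance 1e-06). The signals equalled CPM divided by 0.981 for control and 1.02 for OTD. With 1 library per group a count test has no residual degree of freedom, so none was run, and 3 reads are worth 0.225 in the control column and 0.200 in the OTD column. Depth limits precision through the counting intervals only.

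The gene set, the lists and the rule for named genes (all members, up to 4 genes with the largest differences per list, and single genes) were chosen with earlier results of these data known. Some genes that the rule takes are not reported here. The lists named 3 genes by newer or older symbols that RefSeq synonyms matched. GENCODE M21 (GRCm38, that is mm10) gave coordinates, transcripts and overlaps. Alternatives were other pseudocounts, scalings, minimum levels and fold limits. The method was tested on simulated reads that held counting error only, so that test cannot speak to the spread between mice or pools. Tools were scipy 1.17.1, pandas 2.3.3, numpy 2.4.6 and matplotlib 3.10.9 in Python 3.11.15.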

Additional observations from a re-analysis of the deposited data

How the results depend on the processing

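Tdo2 was the single member lower at 1.2-fold under each pseudocount, scaling and minimum level tried, and at 1.1-fold. The count of lower members was 0 at 1.5-fold and 0 at 2-fold. The count of higher members, 1 (Kynu), became 0 with a pseudocount of 10, after scaling to the same upper quartile, at 1.5-fold and at 2-fold, where the limit itself or a shift of the ratio by a small amount sufficed, since Kynu stood at the limit. The median log2 ratio of the members, 0.035, became 0.090 with equal library totals and 0.11 with equal totals that omit Rn45s, as all ratios shift together. A minimum mean of 100, chosen after seeing the data, left the members' counts as they were. No minimum level tried could change these counts, because every member had a mean above 100 (the lowest was Afmid at 181). Of 72 alternative values of single members, 62 stayed within the counting interval and 10 moved beyond it. The 62 include the values under other minimum levels, which cannot alter the ratio of a gene. For the members past 1.2-fold, the log2 ratio stayed between −0.42 and −0.34 (Tdo2) and between 0.25 and 0.34 (Kynu). The shifts tried were too small to change the sign of either, so their unchanged sign is no test of the result. Hpd, Fah and Kmo took either sign across the scalings. No paired analysis was possible because each group has 1 library.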
